A study of Homo sapiens with 12 samples.

Results

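The 10 genes described here, HK1, HK2, GPI, PFKP, ALDOA, GAPDH, PGK1, ENO1, PKM and LDHA, encode enzymes that carry glucose to pyruvate and lactate. They were selected by gene name, and each symbol stood at 1 gene identifier, which makes 10 of the 60660 identifiers measured. All 10 passed the filter on low values (at least 1 TPM in at least 2 libraries), through which 16842 genes were tested. TPM corrects for gene length and adds up to one fixed total per library, so levels of different genes can be compared, but each is a fraction of that library's RNA. In such bulk samples, fewer cells that express a gene and less of its RNA per cell cannot be told apart.

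RNA was sequenced in 12 libraries from Kelly, a human MYCN-amplified neuroblastoma cell line with an adrenergic (sympathetic neuron-like) character. They came from 3 engineered derivatives, each with a short hairpin RNA (shRNA) that is made when doxycycline is given. The hairpin targeted RCOR1 in the shRCOR1 line, RCOR2 in the shRCOR2 line, and was non-targeting in the shCTRL line. RCOR1 and RCOR2 encode related scaffold proteins that link the histone demethylase KDM1A to histone deacetylases, and the series asked what each does for transcription. In every line 2 libraries came from untreated cells and 2 from cells given 2 µg/mL doxycycline, called induced below, which makes 6 groups. Every library, untreated ones included, carries a time label of 72 h, whereas the treatment protocol names 24 or 48 h, so the length of induction is uncertain. All groups share the MYCN amplification and an integrated hairpin, and 1 line stands for each target; whether a line is a clone or a pool is not stated in the labels. The labels do not say whether the 2 libraries of a group are separate cultures, so p-values measure only the spread between these samples.

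Glycolysis first traps glucose by phosphorylation and splits it into triose phosphates at the cost of ATP, and then oxidises these to pyruvate with a net yield of ATP and NADH. Lactate dehydrogenase turns pyruvate into lactate and regenerates NAD+, which lets the pathway run fast in many tumours, including neuroblastoma. Most of these enzymes exist as isozymes from separate genes, and many of the genes are known targets of hypoxia-inducible factors and of MYC family proteins, which bind short motifs in promoters.

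The promoters of 4 of the enzymes are shown because their change differed between the shRCOR2 and shRCOR1 lines while their sequences differ in those motifs. HK1, whose change also differed between these lines, is not shown. Where RefSeq lists more than 1 window for a gene, the one with the most matches is shown, and of equal ones the one with more CACGTG. All are RefSeq windows on GRCh38.p14, 300 bases long, from 250 bases before to 50 after a transcription start, written 5′ to 3′ on the strand of the gene. Capitals mark every match to ACGTG on either strand, a common form of the core of the hypoxia response element. Other forms of that core were not searched for. ACGTG also lies within CACGTG, the E-box bound by MYC family proteins. Since CACGTG holds ACGTG on both strands, overlapping matches are counted as 1, here and in the choice of windows. The HK2 window (chr2:74834920-74835219, plus strand) held 2 ACGTG matches, both within a CACGTG, while the other HK2 window held 2 ACGTG and no CACGTG. The PGK1 window (chrX:78103998-78104297, plus strand) held 3 matches and no CACGTG. The LDHA window (chr11:18394313-18394612, plus strand) held 3 matches, of which 2 lay within a CACGTG, while the other LDHA window held none. The ENO1 window (chr1:8878637-8878936, minus strand) held no ACGTG match and so has no capitals.
HK2: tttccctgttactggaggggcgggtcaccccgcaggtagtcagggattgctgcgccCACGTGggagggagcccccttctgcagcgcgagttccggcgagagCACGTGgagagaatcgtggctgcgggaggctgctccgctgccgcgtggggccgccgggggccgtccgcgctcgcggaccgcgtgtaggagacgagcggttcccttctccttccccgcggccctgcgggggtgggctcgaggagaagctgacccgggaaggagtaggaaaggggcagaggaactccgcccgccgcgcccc
PGK1: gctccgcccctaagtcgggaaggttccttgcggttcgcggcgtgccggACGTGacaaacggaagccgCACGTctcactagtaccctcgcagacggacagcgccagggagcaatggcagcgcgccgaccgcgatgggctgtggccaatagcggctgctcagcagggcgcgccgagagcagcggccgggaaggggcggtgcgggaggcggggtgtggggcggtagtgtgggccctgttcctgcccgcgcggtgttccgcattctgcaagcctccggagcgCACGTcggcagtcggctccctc
LDHA: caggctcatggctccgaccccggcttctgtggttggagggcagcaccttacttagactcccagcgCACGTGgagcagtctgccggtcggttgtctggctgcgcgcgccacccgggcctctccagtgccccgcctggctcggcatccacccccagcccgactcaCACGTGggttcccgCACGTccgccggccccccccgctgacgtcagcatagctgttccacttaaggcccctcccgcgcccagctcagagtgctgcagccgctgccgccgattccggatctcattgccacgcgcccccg
ENO1: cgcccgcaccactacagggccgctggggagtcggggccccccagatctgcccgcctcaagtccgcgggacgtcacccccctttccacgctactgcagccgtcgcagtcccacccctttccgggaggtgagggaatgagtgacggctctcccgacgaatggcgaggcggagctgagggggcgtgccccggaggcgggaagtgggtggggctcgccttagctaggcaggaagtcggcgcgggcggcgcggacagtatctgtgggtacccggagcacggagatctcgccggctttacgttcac

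RefSeq listed 23 such windows for the 10 genes, all 10 of which matched by symbol. ACGTG stood in 10 of the 23 windows (43.5%), against 21.4% of all 35116 windows, and CACGTG in 4 (17.4%), against 7.3%. Counted by gene, 7 of the 10 had an ACGTG in at least 1 window and 4 had a CACGTG, against 24.9% and 8.8% of 27305 genes. The 4 with a CACGTG were HK2, ALDOA, GAPDH and LDHA, and the 3 without an ACGTG were HK1, ENO1 and PKM. A match describes the letters in the window and is not evidence of binding.

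The 12 libraries differed by up to 2.16-fold in relative depth and held 14758 to 16026 genes at 1 TPM or more. Mitochondrial transcripts took 13.3% to 21.4% of TPM, and in each of the 6 groups their share was higher in the second replicate. RCOR1 stood at 8.32 and 9.08 TPM in untreated and at 4.80 and 5.07 TPM in induced shRCOR1 libraries, and RCOR2 at 55.4 and 49.9 TPM against 17.7 and 20.5 TPM in the shRCOR2 line. RCOR2 was also at 51.4 and 50.5 TPM in untreated and at 26.0 and 26.3 TPM in induced shRCOR1 libraries, so RCOR2 RNA was lower in both knockdown lines. In the shCTRL line RCOR2 was also lower, at 49.7 and 42.7 TPM induced against 54.6 and 50.2 TPM untreated. All 8 adrenergic markers were measured at 1 TPM or more, with a summed level of 3369 to 6574 TPM. None of 4 leukocyte and erythroid markers reached 1 TPM (summed level 0.0585 to 0.348 TPM, CD3E and HBB at 0), 2 of 5 epithelial markers did (5.72 to 12.8 TPM, CDH1 and KRT5 at 0), and so did 2 of 5 fibroblast and endothelial markers, COL1A1 and PDGFRB (27.3 to 124 TPM, with DCN, PECAM1 and CDH5 under 0.1 TPM). The epithelial marker EPCAM rose in the shRCOR1 line, from 0.286 and 0.309 TPM to 3.18 and 4.13 TPM (1.83 ± 0.33 log2; limma, adjusted p = 0.0120). It was at 0.218 and 0.542 TPM and then 1.17 and 1.68 TPM in the shRCOR2 line (limma, adjusted p = 0.132; with the replicate block, 0.0237), and at 0.143 and 0.376 TPM and then 0.206 and 1.55 TPM in the shCTRL line. The part of these cell type markers in the enzyme results was not tested.

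With the RCOR2 hairpin induced, all 10 enzyme transcripts were lower than in untreated cells of that line in both replicates, and LDHA, the lactate dehydrogenase subunit that favours lactate formation, had the largest difference of the 10. Changes were tested with limma on log2(TPM + 1) over all 16842 genes, with Benjamini-Hochberg adjustment, and a gene was called at an adjusted p under 0.05. By this test HK2, ALDOA, PGK1, ENO1 and LDHA fell, 5 of 10, and none rose, where 6.47% of all genes tested were called lower and 7.81% higher. With the RCOR1 hairpin 3 of the 10 rose (HK1, HK2 and PGK1) and none fell, against 4.98% of all genes called higher and 3.64% called lower. With the control hairpin none of the 10 was called in either direction, where 0% of all genes were called lower and 0% higher. At an unadjusted p under 0.05 the control line likewise had 0 of the 10, though 638 genes overall were lower and 300 higher, and limma with the replicate number as a block also called 0 of the 10 (0.0297% of all genes lower and 0.0297% higher). Taken within each replicate number, though, all 10 had the same sign in both control pairs, 7 lower and 3 higher.

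**Figure D1:**
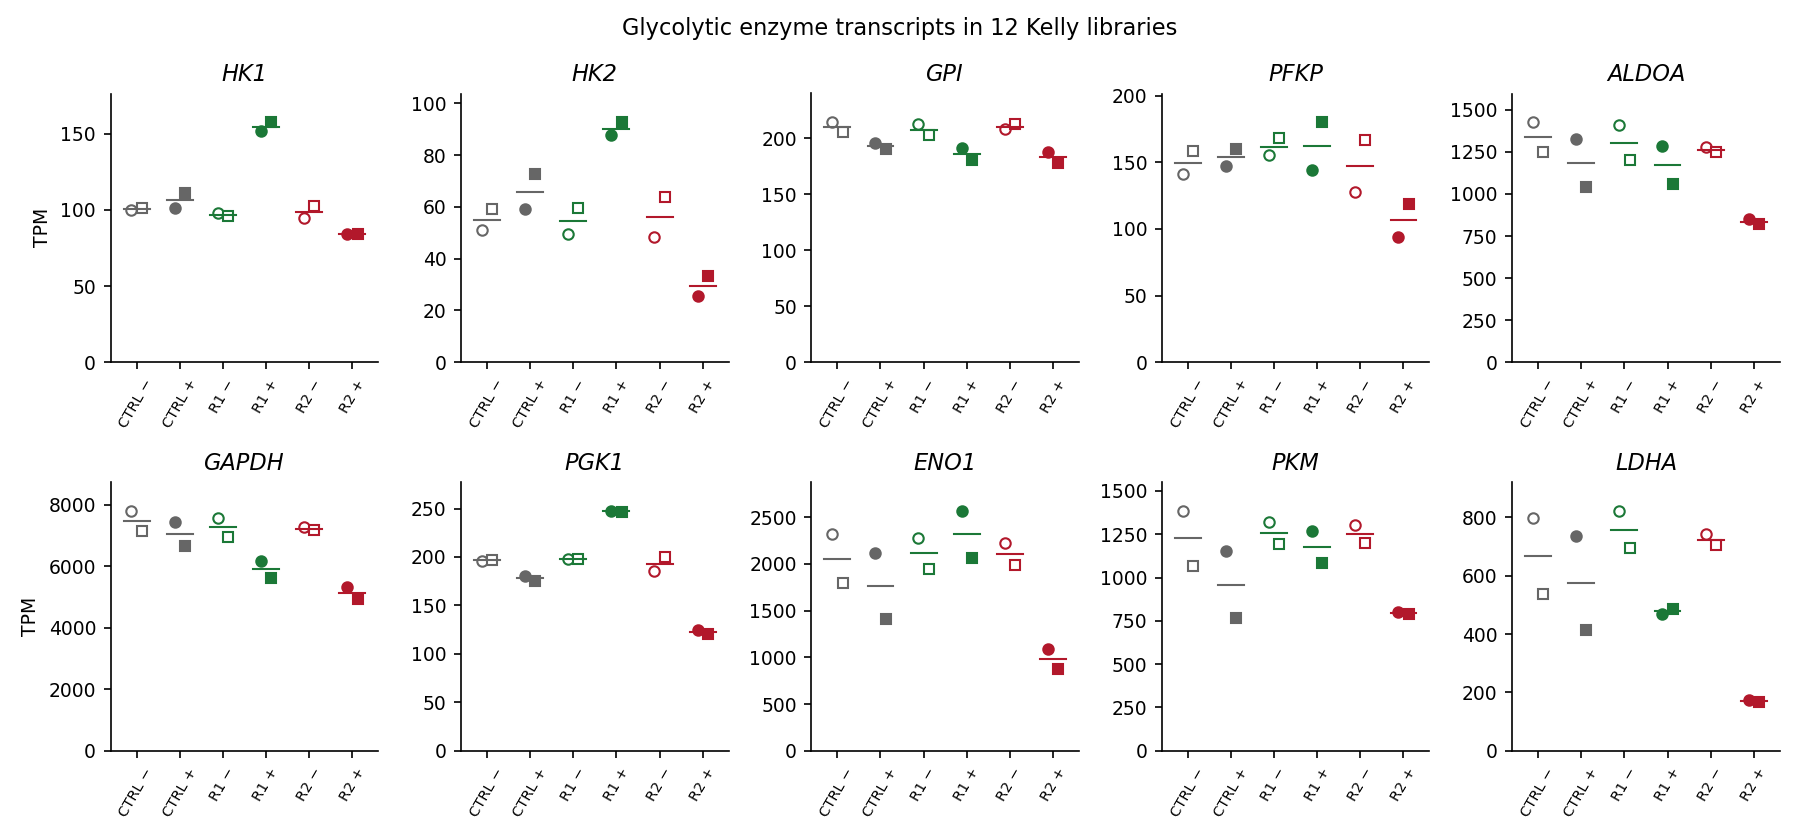
TPM (linear axes from 0) of the 10 glycolytic enzymes in the 12 libraries, by line (CTRL, R1 and R2 for shCTRL, shRCOR1 and shRCOR2) and treatment; open symbols (−) are untreated and filled ones (+) induced libraries, circles replicate 1, squares replicate 2, and lines the group mean. In the shRCOR2 line (red) both induced libraries lie below both untreated ones for all 10 genes, with LDHA at 172 and 168 TPM against 742 and 705 TPM.

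HK1 and HK2 encode hexokinases, which phosphorylate glucose in the first step; HK1 is the broadly expressed form and HK2 the form that is often high in tumours. HK1 (chr10:69269984-69401884, plus strand) was at 97.8 and 95.7 TPM in untreated and at 151.6 and 157 TPM in induced shRCOR1 libraries, replicate 1 first here and throughout. In shRCOR2 cells HK1 was at 94.4 and 102.6 TPM untreated and at 84.3 and 84.4 TPM induced. In shCTRL cells HK1 was at 99.7 and 101.1 TPM untreated and at 101.3 and 111.1 TPM induced. The induced shRCOR1 libraries stood above all 10 others. HK1 rose by 0.67 ± 0.08 (log2, SE) in the shRCOR1 line (limma, adjusted p = 0.00318), a call that was kept in all 9 other settings (other scalings, filters and models) and in all 12 fits that left out 1 library, with adjusted p from 0.000336 to 0.0382. For the shRCOR2 line the difference was -0.22 ± 0.08 (limma, adjusted p = 0.12; with the replicate block, 0.0299).

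HK2 (chr2:74834127-74893359, plus strand) was at 49.6 and 59.7 TPM in untreated and at 87.6 and 92.7 TPM in induced shRCOR1 libraries. The shRCOR2 values were 48.3 and 63.7 TPM untreated and 25.7 and 33.3 TPM induced. The shCTRL values were 50.9 and 59.0 TPM untreated and 59.0 and 72.6 TPM induced. The knockdown lines thus separated fully, upwards in one and downwards in the other. The control groups overlapped narrowly, and HK2 was higher with induction in both control pairs, by 0.21 and 0.29 on the log2 scale. With the RCOR2 hairpin HK2 fell by 0.90 ± 0.18 on the log2 scale (limma, adjusted p = 0.0157) and rose by 0.72 ± 0.18 in the shRCOR1 line (limma, adjusted p = 0.0478). The rise was kept in 6 of 9 other settings and in 2 of 12 fits without 1 library (limma, adjusted p from 0.000759 to 0.262). The fall was kept in 9 of 9 and 10 of 12 (limma, adjusted p from 0.000218 to 0.118); it was lost without replicate 2 of the untreated group (-0.70) or replicate 1 of the induced group (-0.72).

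GPI, glucose-6-phosphate isomerase, and PFKP, the platelet-type subunit of phosphofructokinase at the committed step, were, with GAPDH and PKM, the 4 enzymes called in no line. GPI (chr19:34359480-34402413, plus strand) was at 213 and 203 TPM untreated and 191 and 181 TPM induced in the shRCOR1 line, at 208 and 213 TPM and then 188 and 178 TPM in the shRCOR2 line, and at 214 and 206 TPM and then 196 and 190.1 TPM in the shCTRL line. The induced libraries were thus the lower ones in all 3 lines, and by like amounts. The differences were -0.16 ± 0.08, -0.20 ± 0.08 and -0.12 ± 0.08 on the log2 scale, none of them called by limma (adjusted p = 0.284, 0.135 and 0.958), and with the replicate block the adjusted p in the shRCOR2 line was 0.0254. PFKP (chr10:3066333-3137718, plus strand) was at 155 and 168 TPM untreated and 145 and 180.0 TPM induced in the shRCOR1 line. It was at 127 and 167 TPM and then 94.0 and 119 TPM in the shRCOR2 line, and at 141 and 158 TPM and then 148 and 160.1 TPM in the shCTRL line. The groups separated only in the shRCOR2 line, where the difference was -0.46 ± 0.17 (limma, adjusted p = 0.109; with the replicate block, 0.00379).

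ALDOA encodes aldolase A, which splits fructose bisphosphate into triose phosphates. ALDOA (chr16:30064164-30070457, plus strand) was at 1276 and 1252 TPM in untreated and at 850.4 and 819.6 TPM in induced shRCOR2 libraries. Levels in the shRCOR1 line were 1407 and 1199 TPM untreated and 1286 and 1062 TPM induced, and in the shCTRL line 1426 and 1250.3 TPM and then 1329 and 1043 TPM. Only the shRCOR2 groups did not overlap, and the 2 induced libraries there were the lowest of the 12. ALDOA fell by 0.60 ± 0.16 on the log2 scale (limma, adjusted p = 0.0371), a call kept in 6 of 9 other settings and 6 of 12 fits without 1 library (limma, adjusted p from 0.00131 to 0.172), and lost among others when any library of the shRCOR2 line was left out.

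GAPDH, the enzyme that oxidises glyceraldehyde 3-phosphate and a common reference transcript, was the most abundant of the 10 and 11th of all genes in untreated cells. GAPDH (chr12:6534512-6538374, plus strand) was at 7269 and 7173 TPM untreated and 5305 and 4927 TPM induced in the shRCOR2 line. It was at 7566 and 6942 TPM and then 6154 and 5626 TPM in the shRCOR1 line, and at 7797 and 7134 TPM and then 7442 and 6652 TPM in the shCTRL line. Induced libraries of both knockdown lines lay below their untreated ones, and the control groups overlapped. With the RCOR2 hairpin the difference was -0.50 ± 0.15 (limma, adjusted p = 0.0538), and it was -0.30 ± 0.15 in the shRCOR1 line (limma, adjusted p = 0.258). With the replicate block both were called, at an adjusted p of 0.000649 and 0.00727 by limma.

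PGK1 encodes phosphoglycerate kinase, which makes the first ATP of the payoff phase. PGK1 (chrX:77910739-78129295, plus strand) was at 185 and 199.7 TPM untreated and 124 and 121 TPM induced in the shRCOR2 line. With the RCOR1 hairpin it was at 198.4 and 197.4 TPM untreated and 247.7 and 246.7 TPM induced, and in the shCTRL line at 196.1 and 197.0 TPM and then 181 and 175 TPM. The induced groups took the highest place with the RCOR1 hairpin and the lowest with the RCOR2 hairpin, and no treated group overlapped its untreated one. With the RCOR2 hairpin PGK1 fell by 0.65 ± 0.08 (limma, adjusted p = 0.00206), kept in 9 of 9 other settings and 12 of 12 fits without 1 library (limma, adjusted p from 0.000212 to 0.0256). It rose by 0.32 ± 0.08 in the shRCOR1 line (limma, adjusted p = 0.0397), kept in 4 of 9 and 2 of 12 (limma, adjusted p from 0.00609 to 0.212). Each replicate taken alone gave 0.32 in that line.

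ENO1 encodes alpha-enolase, which forms phosphoenolpyruvate, and is the broadly expressed partner of the neuronal ENO2. ENO1 (chr1:8861000-8879190, minus strand) was at 2229.6 and 1985 TPM untreated and 1089 and 876 TPM induced in the shRCOR2 line. The shRCOR1 line had 2277 and 1948 TPM and then 2569 and 2066 TPM, and the shCTRL line 2317 and 1795 TPM and then 2118 and 1413 TPM. Only the shRCOR2 groups separated, and their induced libraries were the lowest of the 12. ENO1 fell by 1.11 ± 0.23 (limma, adjusted p = 0.0165), kept in 9 of 9 other settings and 8 of 12 fits without 1 library (limma, adjusted p from 0.000132 to 0.115). The 4 fits that lost the call were those without a library of the shRCOR2 line itself. The shRCOR1 difference was 0.13 ± 0.23 (limma, adjusted p = 0.801).

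PKM encodes pyruvate kinase, which makes pyruvate and the last ATP; its splice forms are not separated in these gene-level values. PKM (chr15:72199029-72231822, minus strand) was at 1305 and 1198 TPM untreated and 799.9 and 788.6 TPM induced in the shRCOR2 line. The shRCOR1 line had 1319 and 1194 TPM and then 1269.5 and 1085 TPM. The shCTRL line had 1385 and 1069 TPM and then 1152 and 767 TPM, so the lowest PKM value of all 12 came from replicate 2 of the induced control. The shRCOR2 difference was -0.65 ± 0.20 (limma, adjusted p = 0.0638; with the replicate block, 0.00407), and the shCTRL difference was -0.37 ± 0.20.

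LDHA (chr11:18394560-18408425, plus strand) was at 742 and 705 TPM untreated and 172 and 168 TPM induced in the shRCOR2 line. The shRCOR1 line had 823 and 694 TPM and then 469 and 487 TPM. The shCTRL line had 798 and 538 TPM and then 737 and 415 TPM. Induced libraries lay below untreated ones in both knockdown lines, and the control groups overlapped, with replicate 2 the lower one untreated and induced. LDHA fell by 2.08 ± 0.26 on the log2 scale in the shRCOR2 line, to 0.236 of its untreated level (limma, adjusted p = 0.0025), kept in 9 of 9 other settings and 12 of 12 fits without 1 library (limma, adjusted p from 0.000201 to 0.027). For the shRCOR1 line the difference was -0.66 ± 0.26 (limma, adjusted p = 0.166; with the replicate block, 0.0344). The control difference was -0.24 ± 0.26.

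**Figure D2:**
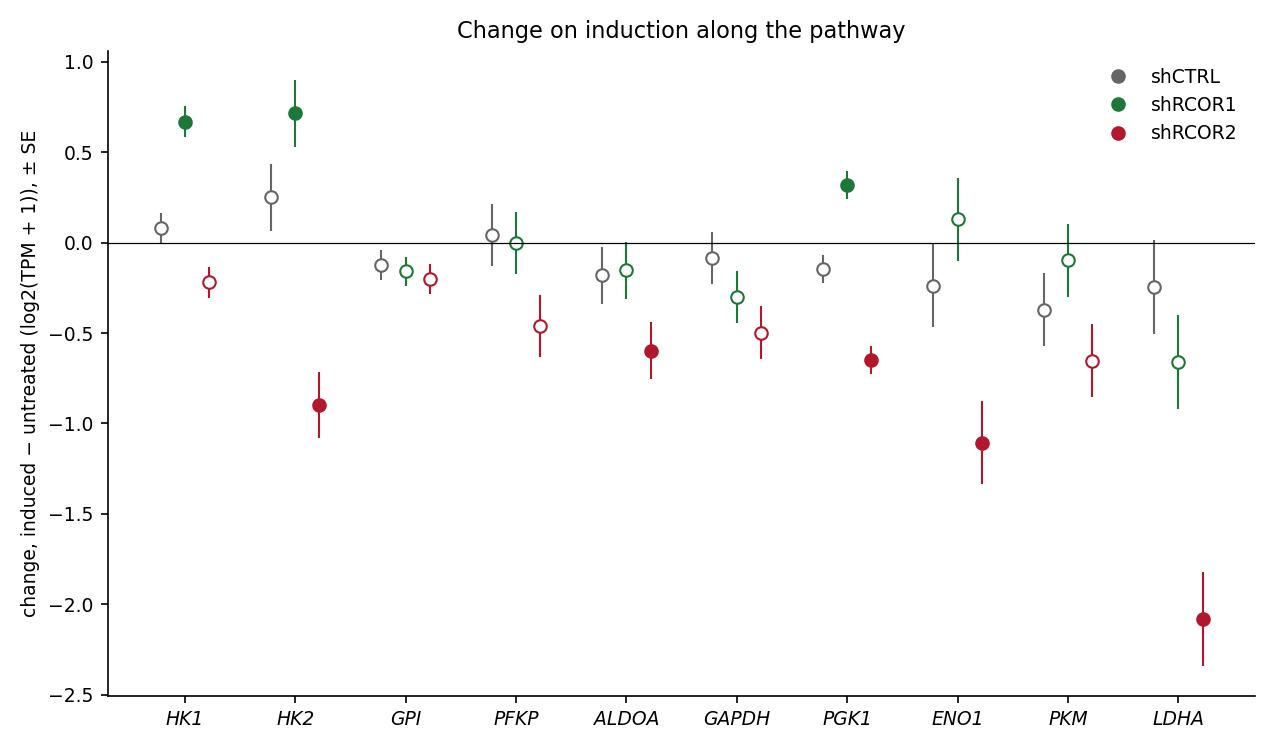
Log2 change (induced minus untreated, log2(TPM + 1)) of each enzyme in the shCTRL, shRCOR1 and shRCOR2 lines; points are estimates, bars ± 1 SE from limma, and filled points were called at an adjusted p under 0.05. The shRCOR2 points all lie below 0, from -0.20 for GPI to -2.08 for LDHA, while those of the shRCOR1 line lie on both sides.

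Read across the pathway, the 10 log2 changes had a median of -0.62 in the shRCOR2 line, where the median over all genes tested was 0.07, and 10 of 10 were below 0. The median was -0.05 in the shRCOR1 line (all genes 0.04) and -0.13 in the shCTRL line (all genes -0.02). In the shRCOR2 line the induced and untreated groups did not overlap for any of the 10, and the induced group was the lower one each time, a pattern found in 25.7% of all genes tested, while 37.6% were separated upwards. With the RCOR1 hairpin 3 were separated upwards (HK1, HK2, PGK1), 3 downwards (GPI, GAPDH, LDHA) and 4 overlapped, with 29.4% and 23.7% of all genes separated upwards and downwards. With the control hairpin 1 was separated upwards (HK1) and 2 downwards (GPI, PGK1), with 7.99% and 15.6% of all genes. With the replicate block, 10 of the 10 were called lower in the shRCOR2 line, where that fit called 14.8% of all genes lower and 21.4% higher. In the shRCOR1 line it called 3 higher and 2 lower (GAPDH and LDHA), against 15.4% of all genes higher and 12.1% lower.

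Before induction no difference between the lines was called for the 10 enzymes. None of the 10 was called between untreated shRCOR1 and untreated shCTRL libraries (0% of all genes called lower, 0% higher), where their log2 differences ran from -0.05 to 0.21. None was called between untreated shRCOR2 and untreated shCTRL libraries either (0% lower, 0% higher), with differences from -0.08 to 0.14. Over all settings, each library left out included, the ranges widened to -0.15 to 0.49 and to -0.23 to 0.43, still with 0 called. At an unadjusted p under 0.05 no enzyme passed in either comparison, and limma with the replicate block also called none (0% of all genes).

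Whether the 2 knockdown lines differed from each other and from the control was tested as a difference of changes. Against the control line, LDHA fell further in the shRCOR2 line by 1.84 ± 0.37 on the log2 scale (limma, adjusted p = 0.0472), the 1 call among the 10, with 1.2% of all genes called lower and 0.891% higher. That call was kept in 6 of 9 other settings and in 1 of 12 fits without 1 library (limma, adjusted p from 0.00565 to 0.166). The differences for HK2 (-1.15 ± 0.26, adjusted p = 0.0624) and PGK1 (-0.50 ± 0.11, adjusted p = 0.0579) missed the threshold in limma, as did ENO1 (-0.87 ± 0.32, adjusted p = 0.212), and 10 of 10 differences were below 0. With the replicate block 7 of the 10 were called lower (HK2, PFKP, ALDOA, GAPDH, PGK1, ENO1 and LDHA), where that fit called 5.8% of all genes lower and 8.93% higher.

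The shRCOR1 line compared with the control gave 0 calls among the 10, with 0.439% of all genes called lower and 0.843% higher. At an unadjusted p under 0.05 there were 2 of the 10, where 815 of all 16842 genes were lower and 1542 higher. HK1 differed by 0.59 ± 0.12 (limma, adjusted p = 0.0584) and PGK1 by 0.46 ± 0.11 (limma, adjusted p = 0.0937). For HK2, which was also higher in the induced control, the adjusted p by limma was 0.501. With the replicate block HK1, HK2 and PGK1 were called higher, against 6.59% of all genes higher and 3.57% lower. Over the 9 other settings HK1 was called in 2, the block and the fit without the filter on low values (limma, adjusted p from 0.00829 to 0.226 over all alternatives).

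Directly between the knockdown lines, 5 of the 10 changes were lower with the RCOR2 hairpin and none higher, where 5.97% of all genes were called lower and 5.2% higher. HK2 differed by -1.62 ± 0.26 (limma, adjusted p = 0.00761), PGK1 by -0.97 ± 0.11 (limma, adjusted p = 0.00247) and HK1 by -0.89 ± 0.12 (limma, adjusted p = 0.00437). These 3 calls were kept in 9 of 9 other settings and 12 of 12 fits without 1 library. ENO1 (-1.24 ± 0.32, adjusted p = 0.0438) and LDHA (-1.42 ± 0.37, adjusted p = 0.0426) were also called by limma, each in 6 of 9 other settings and 4 of 12 fits without 1 library. HK2 and PGK1 thus rose in one knockdown line and fell in the other, and the test of the difference passed for both. For GPI the difference was -0.04 ± 0.11 (limma, adjusted p = 0.868). With the replicate block 8 of the 10 were called lower, all but GPI and GAPDH, where that fit called 14.7% of all genes lower and 15.7% higher.

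Summed over the 10 genes, the enzymes made up 1.33% ± 0.0301 (SD, n = 2) of TPM in untreated and 0.842% ± 0.0438 (SD, n = 2) in induced shRCOR2 libraries. The sums were 13485 and 13059 TPM untreated and 8733 and 8114 TPM induced, which is a difference of -36.5% between the means. The shRCOR1 sums were 14106 and 12702 TPM and then 12571 and 11184 TPM, and the shCTRL sums 14425 and 12508 TPM and then 13463 and 10998 TPM. The induced shRCOR2 libraries were lower than the other 10. The log2 change of the sum was -0.66 in the shRCOR2 line, -0.17 in the shRCOR1 line and -0.14 in the shCTRL line; with 2 libraries against 2 an exact permutation test cannot go below p = 0.333, so none was used. With 1 library left out the change of the sum ran from -0.71 to -0.60 in the shRCOR2 line, from -0.26 to -0.09 in the shRCOR1 line and from -0.29 to 0.0033 in the shCTRL line. GAPDH alone gave 49.6% to 60.7% of the group sums, so the sum follows GAPDH more than any other enzyme.

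**Figure D3:**
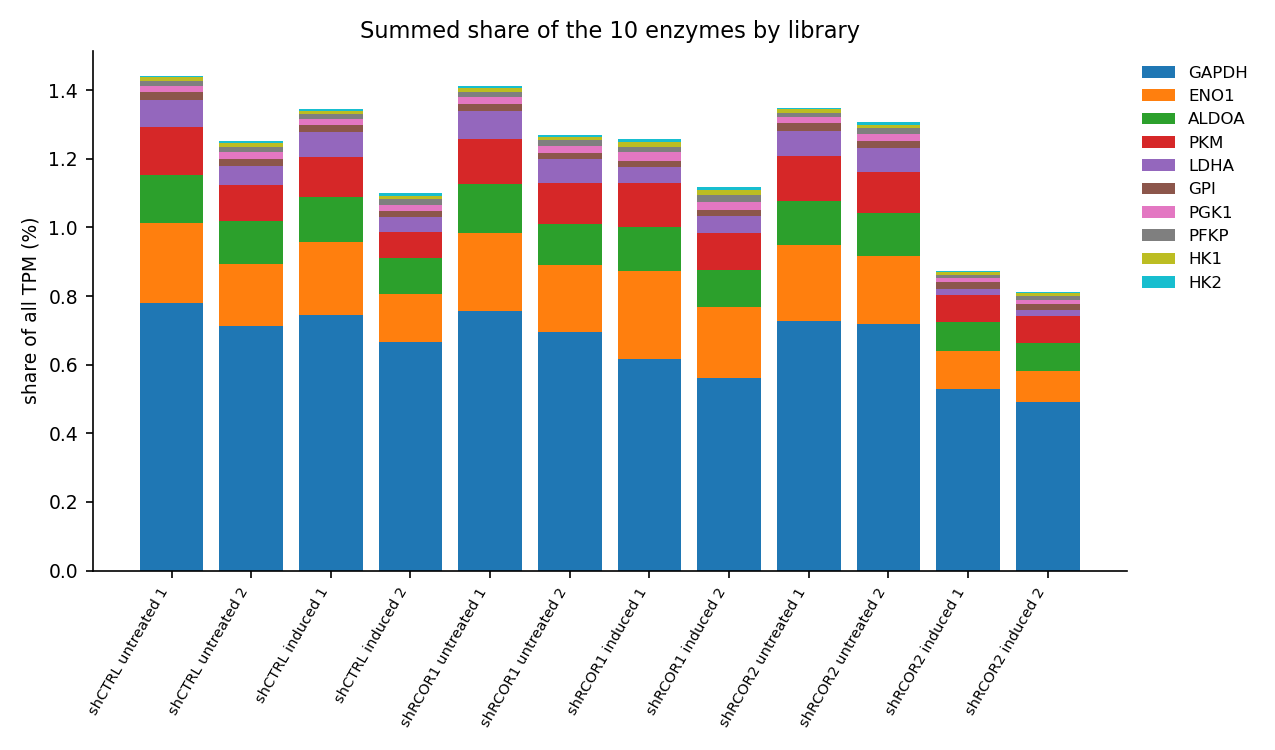
Share of all TPM (%) taken by the 10 enzymes in each of the 12 libraries, as stacked bars with 1 colour per gene. The 2 induced shRCOR2 bars, with a mean of 0.842%, are the lowest of the 12, and GAPDH is the largest segment in every bar.

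Ratios between isozymes within a library do not depend on how that library was scaled. The ratio of LDHA to LDHB, which encode the muscle-type and heart-type subunits of lactate dehydrogenase, went from 0.310 to 0.0786 in the shRCOR2 line, a log2 change of -2.02 in replicate 1 and -1.93 in replicate 2. With the RCOR1 hairpin its mean log2 change was -0.06 and in the shCTRL line -0.28. LDHB was at 2332 and 2337 TPM untreated and 2204 and 2124 TPM induced in the shRCOR2 line, far less of a difference than for LDHA. In the shRCOR1 line both were lower by like amounts, LDHB at 2322 and 2280 TPM and then 1557 and 1474 TPM (-0.60 ± 0.10; limma, adjusted p = 0.0100). The HK2 to HK1 ratio changed by -0.72 and -0.64 in the shRCOR2 line, against means of 0.05 in the shRCOR1 and 0.17 in the shCTRL line, so in the shRCOR1 line the 2 hexokinases moved up together. The ENO1 to ENO2 ratio changed by -0.32 and -0.64 in the shRCOR2 line, although ENO2, the neuronal enolase, fell as well. The PFKP to PFKL ratio changed by -0.44 in the shRCOR2 and 0.33 in the shRCOR1 line, PFKP to PFKM by -0.29 in the shRCOR2 line, and ALDOA to ALDOC by 0.43 in the shRCOR1 line. ALDOA to ALDOC differed by -0.05 and 0.30 in the 2 shRCOR2 replicates, so its direction was not settled there. With 1 library left out, the shRCOR2 change ran from -2.01 to -1.93 for LDHA to LDHB, from -0.86 to -0.50 for HK2 to HK1, from -0.79 to -0.18 for ENO1 to ENO2 and from -0.52 to -0.37 for PFKP to PFKL. It ran from -0.44 to -0.13 for PFKP to PFKM and from -0.28 to 0.53 for ALDOA to ALDOC. For the shRCOR1 line it ran from 0.16 to 0.49 for PFKP to PFKL and from 0.16 to 0.71 for ALDOA to ALDOC. No test was run on these ratios.

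**Figure D4:**
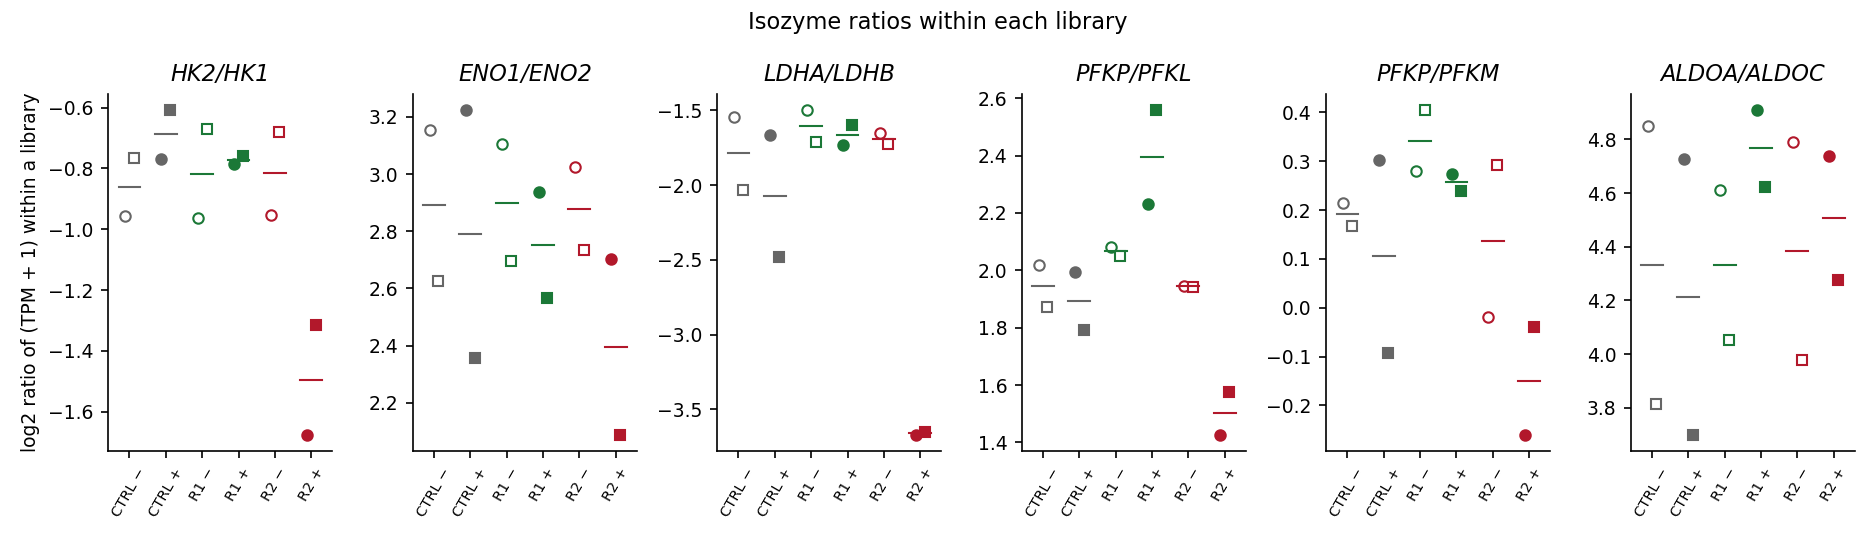
Log2 ratio of isozyme transcripts (TPM + 1) within each library, 1 panel per pair, by line and treatment; open points are untreated (−), filled points induced (+), circles replicate 1, squares replicate 2, lines the mean, and the axes do not start at 0. In the LDHA to LDHB panel the induced shRCOR2 libraries sit at -3.67 and -3.65, and the other 10 libraries lie between -2.48 and -1.50.

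Other genes of glucose use were examined from fixed lists. The shares of all genes called are the background for every list below. In the shRCOR2 line 6.47% were called lower and 7.81% higher, and 14.8% and 21.4% with the replicate block. In the shRCOR1 line 3.64% were called lower and 4.98% higher, and 12.1% and 15.4% with the block. Counts near these shares are no result about a list. Of 19 other glycolytic isozymes and steps, 12 were tested, and in the shRCOR2 line 2 fell and none rose. BPGM, which makes 2,3-bisphosphoglycerate, went from 44.3 and 38.2 TPM to 17.8 and 16.2 TPM (-1.23 ± 0.12; limma, adjusted p = 0.000888), and ENO2 from 273 and 298 TPM to 167 and 205 TPM (-0.62 ± 0.14; limma, adjusted p = 0.0222). With the RCOR1 hairpin LDHB was the 1 called gene. The replicate block gave 5 lower in the shRCOR2 line and 7 lower and 1 higher in the shRCOR1 line. The 2 steps that the 10 enzymes leave out, triose-phosphate isomerase (TPI1) and phosphoglycerate mutase (PGAM1), were called in no line without the block. TPI1 differed by -0.41 in the shRCOR2, -0.36 in the shRCOR1 and -0.36 in the shCTRL line (limma with the replicate block, adjusted p = 0.0167, 0.0363 and 0.195). PGAM1 differed by -0.51, -0.37 and -0.35 in the same order (limma with the replicate block, adjusted p = 0.00717, 0.0352 and 0.202).

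Of 8 glucose and lactate transporters 7 were tested; 3 fell in the shRCOR2 line and 1 in the shRCOR1 line, and none rose in either (5 lower in the shRCOR2 line with the replicate block). SLC16A3, the lactate exporter MCT4, was at 20.0 and 49.8 TPM in untreated and 5.53 and 12.7 TPM in induced shRCOR2 libraries (-1.78 ± 0.50; limma, adjusted p = 0.0467). SLC16A1, the monocarboxylate transporter MCT1, fell in both lines, by 0.53 ± 0.11 with the RCOR2 hairpin (limma, adjusted p = 0.0180) and by 0.52 ± 0.11 with the RCOR1 hairpin (limma, adjusted p = 0.0239). With the control hairpin SLC16A1 was also lower, at 149 and 123 TPM induced against 170 and 157 TPM untreated. SLC2A4, the insulin-responsive glucose transporter GLUT4, was low throughout and fell by 1.30 ± 0.21 with the RCOR2 hairpin (limma, adjusted p = 0.00658). The main glucose importer SLC2A1 (GLUT1) was at 86.2 and 133 TPM untreated and 53.2 and 87.0 TPM induced there (-0.64 ± 0.35; limma, adjusted p = 0.261; with the replicate block, 0.0264).

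Of 7 genes that control fructose bisphosphates, the activators and brakes of the phosphofructokinase step, 5 were tested. In the shRCOR1 line 1 rose, and in the shRCOR2 line 0 were called, with 2 lower and 2 higher by the replicate block. At an unadjusted p under 0.05 the shRCOR2 line had 3 of the 5, where 2034 of all 16842 genes were lower and 2959 higher. The gene that rose, PFKFB3, makes the phosphofructokinase activator fructose 2,6-bisphosphate, and went from 3.50 and 5.17 TPM to 14.4 and 27.7 TPM (1.99 ± 0.32; limma, adjusted p = 0.00748). For the shRCOR2 line PFKFB3 was at 3.99 and 4.97 TPM and then 1.77 and 1.62 TPM (-1.02 ± 0.32; limma, adjusted p = 0.0654; with the replicate block, 0.0272). Its change differed between the knockdown lines by -3.01 on the log2 scale (limma, adjusted p = 0.00584).

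Of 14 genes for the entry of pyruvate into mitochondria 13 were tested, with 3 lower and 1 higher in the shRCOR2 line and 1 lower in the shRCOR1 line; with the replicate block these became 6 lower and 3 higher, and 4 lower and 3 higher. PDK1, the kinase that holds pyruvate dehydrogenase inactive, was at 9.22 and 13.6 TPM untreated and 3.93 and 4.68 TPM induced in the shRCOR2 line (-1.21 ± 0.20; limma, adjusted p = 0.00661). The 2 subunits of the mitochondrial pyruvate carrier went in opposite directions there, MPC2 falling by 0.50 and MPC1 rising by 0.48, and DLD, a pyruvate dehydrogenase subunit, fell by 0.40. MPC1 was also higher with the control hairpin, at 24.5 and 26.6 TPM induced against 21.4 and 20.0 TPM untreated. In the shRCOR1 line PC, pyruvate carboxylase, fell by 0.70. In the pentose phosphate pathway, which branches from glucose 6-phosphate, all 8 genes were tested, and 1 fell and 1 rose in each knockdown line (5 lower and 2 higher in the shRCOR2 line with the block). Single calls of 8 are near the shares of all genes given above and are no result about the pathway. TKT, transketolase, fell by 0.41 in the shRCOR2 and rose by 0.40 in the shRCOR1 line. PGLS rose by 0.56 in the shRCOR2 line but was also at 38.6 and 42.6 TPM in induced against 29.4 and 30.6 TPM in untreated control cells, and RPIA fell by 0.54 in the shRCOR1 line. In the control line none of the genes in the 5 lists above was called; at an unadjusted p under 0.05 there was 1 each among the transport, pyruvate entry and pentose phosphate genes, and the replicate block called 0.

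Genes for transcription factors known to act on glycolytic genes were examined in the same way, 7 of 8 tested, with MYC under 1 TPM and not tested. In the shRCOR2 line 3 fell and 1 rose (4 lower and 1 higher with the replicate block). In the shRCOR1 line 1 fell and 2 rose. In the control line none was called (1 at an unadjusted p under 0.05, 0 with the replicate block). HIF1A, the oxygen-regulated subunit of hypoxia-inducible factor 1, moved in opposite directions in the knockdown lines. It was at 207 and 183 TPM untreated and 76.0 and 84.3 TPM induced in the shRCOR2 line, and at 185 and 187 TPM and then 418 and 445 TPM in the shRCOR1 line. The shCTRL line had 194 and 160 TPM and then 166 and 142 TPM. HIF1A fell by 1.27 ± 0.13 with the RCOR2 hairpin (limma, adjusted p = 0.000961) and rose by 1.21 ± 0.13 with the RCOR1 hairpin (limma, adjusted p = 0.00159). Its changes differed from the control in both lines (-1.07, adjusted p = 0.0280, and 1.41, adjusted p = 0.0131, limma) and between the knockdown lines by -2.48 (limma, adjusted p = 0.000595).

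MYCN, the amplified oncogene of these cells, was at 3020 and 2677 TPM untreated and 1269 and 1042 TPM induced in the shRCOR2 line, and fell by 1.31 ± 0.31 (limma, adjusted p = 0.0269). With the control hairpin MYCN was at 2923 and 2000 TPM untreated and 2928 and 1421 TPM induced, with replicate 2 the lower one untreated and induced. For the shRCOR1 line MYCN differed by -0.31 ± 0.31 (limma, adjusted p = 0.627). EPAS1, which encodes HIF-2 alpha, fell in the shRCOR1 line, from 248 and 279 TPM to 82.9 and 57.9 TPM (-1.91 ± 0.23; limma, adjusted p = 0.00262), and its change differed between the knockdown lines by 1.78. MXI1, a MYC antagonist, fell by 0.71 in the shRCOR2 and rose by 0.55 in the shRCOR1 line. With the control hairpin MXI1 was also higher, at 47.6 and 54.6 TPM induced against 41.1 and 40.7 TPM untreated. RNA levels say nothing of the amount or activity of these proteins, and whether any of them plays a part in the enzyme changes was not tested.

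**Figure D5:**
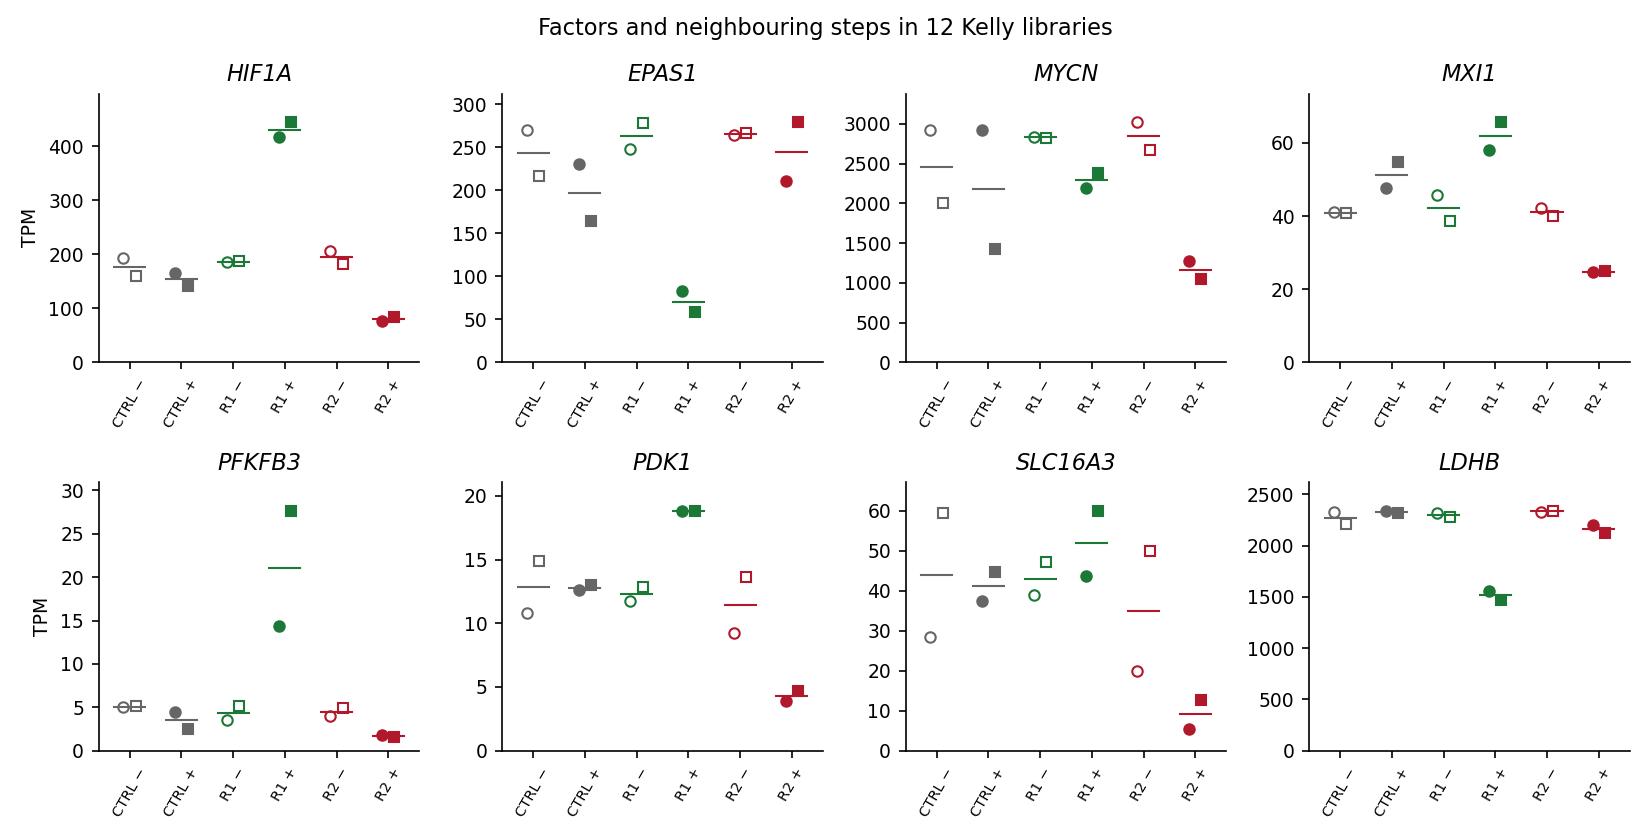
TPM (linear axes from 0) of 8 named genes outside the 10 enzymes in the 12 libraries, by line and treatment, with open untreated (−) and filled induced (+) points, circles for replicate 1, squares for replicate 2 and lines at the group mean. HIF1A and PFKFB3 lie highest in the induced shRCOR1 libraries, at 418 and 445 TPM and at 14.4 and 27.7 TPM, and both lie lowest in the induced shRCOR2 libraries.

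Some adrenergic markers also moved. CHGA fell in both knockdown lines, by 0.98 in the shRCOR2 and by 1.55 in the shRCOR1 line. With the control hairpin CHGA was also lower, at 2389 and 1338 TPM induced against 2975 and 2259 TPM untreated. GATA3 rose by 0.46 in the shRCOR2 and fell by 0.70 in the shRCOR1 line, and ISL1 fell by 1.30 in the shRCOR1 line. The part of these markers in the enzyme results was not tested.

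The enzymes did not vary as 1 block across the 12 libraries. Over these libraries, which share lines, doses and replicate numbers, the Pearson correlation of log2 levels was highest between ALDOA and LDHA (r = 0.946) and between ALDOA and ENO1 (r = 0.921). It was lowest between HK1 and GPI (r = -0.257) and between HK1 and GAPDH (r = -0.0635). With the mean z-score of the 10, ENO1 (r = 0.959) and LDHA (r = 0.939) were most alike and HK1 (r = 0.515) least. Of 9396 other genes with a mean of at least 10 TPM, those with a pattern most like that mean were EIF4EP2 (r = 0.988), ALDH18A1 (r = 0.986), SRXN1 and GOT2 (r = 0.984 each) and HSPB1 (r = 0.982), given as a description over 12 libraries. ALDH18A1 acts in proline synthesis, GOT2 is the mitochondrial aspartate aminotransferase, SRXN1 repairs peroxiredoxins and HSPB1 is a small heat shock protein.

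Processed pseudogenes are many for some of these enzymes and could take reads from the parent gene. The files list 65 named after GAPDH, with a summed level of 13.2 to 20.8 TPM, at most 0.282% of GAPDH in a library. The 6 named after LDHA reached at most 0.423% of LDHA, the highest share among the 10 enzymes, and no pseudogene was named after HK1, GPI or PFKP. Reads given to the parent but coming from a pseudogene cannot be seen in these values.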

How the data were processed

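RNA was measured in 12 libraries of 6 groups, grouped by their titles and treatment labels. The submitters' processing notes name HISAT2 2.2.1, StringTie 2.1.7 and Trim Galore 0.6.7 with GRCh38/hg38; no annotation, strand setting or multimapping rule is given in the sources used here. The deposited TPM, scaled by the authors to one total per library, was the main measure. The deposited FPKM served as an alternative, and the deposited coverage signal gave relative depth. The files hold no read counts, so no counting intervals are given; the 2 libraries per group limit the precision.

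From these values, log2(TPM + 1) was fitted, for genes reaching 1 TPM in 2 or more libraries, with limma 3.58.1 (R 4.3.3; moderated test with a trend on mean level, 6 group means over all 12 libraries, two-sided, Benjamini-Hochberg over 16842 genes); fold changes on this scale understate those of low genes. The script was tested on simulated data. The members and gene lists were chosen with earlier results of these data known. All 10 enzymes are given; of each other list, the called genes of each line (at most 4) are named, and TPI1, PGAM1 and the partner isozymes always. Some called genes of these lists are not reported here. Same-numbered libraries deviated together in all 15 pairs of groups (r from 0.37 to 0.75 over genes), so the replicate number was taken to pair them, and the fit with that number as a block is given where it changes the call of a value printed here; what the number stands for is not given in the labels. Alternatives were a pseudocount of 0.1, no filter, a filter of 5 TPM, FPKM, median-of-ratios and quantile scaling, removal of mitochondrial genes, a fit of only the groups compared, the block, and each library left out in turn. Promoter windows were read from RefSeq (GRCh38.p14); gene coordinates are those in the files. Protein sequences were not used here.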

Additional observations from a re-analysis of the deposited data

Results flagged for a closer look

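The change with doxycycline differed between lines for 6 results, each by the test of the difference itself (limma with Benjamini-Hochberg adjustment). LDHA fell further in the shRCOR2 than in the shCTRL line, with a difference of -1.84 on the log2 scale. That call was kept in 6 of 9 other settings, and with 1 library left out the difference ran from -2.25 to -1.42. Between the shRCOR2 and shRCOR1 lines the change differed by -0.89 for HK1, -1.62 for HK2, -0.97 for PGK1, -1.24 for ENO1 and -1.42 for LDHA. Of these, the calls for ENO1 and LDHA were each kept in 6 of 9 other settings, and those for HK1, HK2 and PGK1 in 9 of 9. HK2 and PGK1 were called in opposite directions in the 2 lines, and HK1 was called higher in the shRCOR1 line and, with the replicate block only, lower in the shRCOR2 line (-0.22). RCOR2 RNA was lower in both knockdown lines (17.7 and 20.5 TPM with the RCOR2 hairpin, 26.0 and 26.3 TPM with the RCOR1 hairpin). With the control hairpin it was at 49.7 and 42.7 TPM induced against 54.6 and 50.2 TPM untreated. Between the knockdown lines, RCOR1 RNA was lower in the shRCOR1 line only. The part of RCOR1 or RCOR2 RNA in these differences was not tested. Groups of 2 libraries are too small to look for a sample far from the others.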

How the results depend on the processing

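The shRCOR2 line kept all 10 enzymes below 0 in every setting run, including each library left out, while the number called varied. Of the 10, 5 were called lower there, against 10 with the replicate block and 2 to 6 with 1 library left out. In the shRCOR1 line 3 were called, against 1 without mitochondrial genes, 1 in a fit of only the groups compared, 5 with the replicate block and 1 to 3 with 1 library left out. For the shRCOR1 change minus the shCTRL change, 0 were called, against 1 without the filter and 3 with the block. For the shRCOR2 change minus the shCTRL change, 1 was called, against 2 with FPKM, 2 with quantile normalization, 0 with only the groups compared, 7 with the block and 0 to 1 with 1 library left out. Between the knockdown lines 5 were called, against 3 without the filter, 3 with FPKM, 3 with median-of-ratios scaling, 8 with the block and 3 to 5 with 1 library left out. The log2 change of the sum in the shRCOR2 line was -0.74 with median-of-ratios scaling. No call changed sign; 5 differences that were not called did with another setting: ENO1 in the shRCOR1 line (-0.011 with quantile normalization), ALDOA in the shRCOR1 change minus the shCTRL change (-0.053 with FPKM, -0.037 with median-of-ratios scaling) and GPI between the knockdown lines (0.053 with FPKM, 0.062 with quantile normalization). With 1 library left out, sign changes gave ranges in the shRCOR1 line of -0.16 to 0.15 for PFKP, -0.027 to 0.29 for ENO1 and -0.21 to 0.017 for PKM, and in the shCTRL line of -0.044 to 0.13 for PFKP, -0.53 to 0.055 for ENO1 and -0.66 to 0.17 for LDHA. For the shRCOR1 change minus the shCTRL change they were -0.073 to 0.0037 for GPI, -0.20 to 0.11 for PFKP, -0.15 to 0.20 for ALDOA and -0.018 to 0.57 for PKM, and for the shRCOR2 change minus the shCTRL change -0.57 to 0.011 for PKM. In the untreated comparisons 0 enzymes were called in any setting. Over all genes, calls in the shRCOR2 line numbered 2406, and 6100 with the block; in the shRCOR1 line 1451, 4620 with the block and 585 with only the groups compared. Where 1 library is left out, the lone sample of its group is assumed to vary like the others. The depth in reads is unknown, so what depth limits could not be stated. The causes of these shifts were not tested.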

Other observations

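Several enzymes differed between replicate 1 and replicate 2 in the same direction in every line and treatment. Replicate 2 was lower than replicate 1 in 6 of 6 groups for ENO1 (mean log2 difference -0.33), PKM (-0.25), ALDOA (-0.19) and GAPDH (-0.11), and in 5 of 6 for LDHA (-0.28). HK2 (0.27) and PFKP (0.24) were higher in replicate 2 in 6 of 6 groups, and PGK1 (0.00) hardly differed. Mitochondrial transcripts took a larger share in replicate 2 of every group, 19.9% against 15.5% of TPM in the induced control, for example.

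GAPDH, often used as a reference transcript, was itself lower with the RCOR2 hairpin: 7221 ± 67.9 TPM (SD, n = 2) untreated and 5116 ± 267 TPM induced. The genes whose pattern over the 12 libraries was most like that of the enzymes fell in the shRCOR2 line as well, a relation that the choice by likeness brings with it. HSPB1 went from a mean of 350 TPM over untreated libraries to 87.5 TPM in induced shRCOR2 libraries, SRXN1 from 33.1 to 9.17 TPM, and GOT2 from 152 to 87.4 TPM.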
